A study of Mus musculus with 2 samples.

Results

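The H19-Igf2 and Kcnq1 imprinted domains lie next to each other at the far end of mouse chromosome 7, and CpG methylation of 10 of their genes was measured in 2 haploid embryonic stem cell lines. The genes, taken by name and RefSeq position (GRCm38.p6, the assembly of mm10) from a table of 49997 genes, are H19, Igf2, Ins2, Ascl2, Cd81, Kcnq1, Kcnq1ot1, Cdkn1c, Phlda2 and Slc22a18. The line A129-2 has a 129Sv background and the line AOS-14 a C57BL/6 background, with 1 library of genomic DNA each. Both lines were obtained by cell sorting from AG-haploid embryos, taken here as androgenetic, so that their single chromosome set comes from sperm. No treatment or time point is named in the labels, each line is 1 derivation, and line and strain cannot be told apart. A test below compares the reads of the 2 libraries and not the strains. The cell identity could not be checked against marker genes, since only methylation was measured.

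In an imprinted gene the copies from the mother and the father differ in expression, because methylation laid down in the egg or in the sperm is kept after fertilisation. A pair of control regions governs these domains in diploid cells. The H19 control region, upstream of H19, is methylated in sperm. Unmethylated, as on the maternal copy, it binds the insulator protein CTCF, and enhancers then act on H19 and not on Igf2. The second, KvDMR1, is methylated in the egg and lies over the promoter of Kcnq1ot1 inside an intron of Kcnq1. On the paternal copy it is free of methylation, the noncoding RNA Kcnq1ot1 is made, and neighbours such as Cdkn1c and Phlda2 are silenced. A genome from sperm is thus the setting in which the first region carries its mark and the second does not.

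The promoter windows below are shown because they are the windows of member genes in the RefSeq promoter table that hold compared CpGs. They run from 250 bases before to 50 bases after a RefSeq start, 5′ to 3′ on the strand of the gene, in GRCm38.p6, and capitals mark the CpGs compared between the lines. The table held windows for 6 of the 10 genes.
Ascl2, chr7:142969215-142969514, minus strand: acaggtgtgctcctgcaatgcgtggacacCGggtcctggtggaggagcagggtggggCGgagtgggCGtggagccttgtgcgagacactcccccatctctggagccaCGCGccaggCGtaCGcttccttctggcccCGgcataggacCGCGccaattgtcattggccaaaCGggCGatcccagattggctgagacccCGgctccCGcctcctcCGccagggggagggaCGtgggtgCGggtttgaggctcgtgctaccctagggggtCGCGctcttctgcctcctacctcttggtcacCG
Cd81, chr7:143052500-143052799, plus strand: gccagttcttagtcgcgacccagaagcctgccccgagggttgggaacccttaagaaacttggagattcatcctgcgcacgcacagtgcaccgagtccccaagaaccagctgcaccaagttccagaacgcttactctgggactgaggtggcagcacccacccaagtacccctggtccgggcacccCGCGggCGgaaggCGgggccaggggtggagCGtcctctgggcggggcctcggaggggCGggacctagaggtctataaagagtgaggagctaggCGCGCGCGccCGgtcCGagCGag
Igf2, at the third of 4 starts, chr7:142658755-142659054, minus strand: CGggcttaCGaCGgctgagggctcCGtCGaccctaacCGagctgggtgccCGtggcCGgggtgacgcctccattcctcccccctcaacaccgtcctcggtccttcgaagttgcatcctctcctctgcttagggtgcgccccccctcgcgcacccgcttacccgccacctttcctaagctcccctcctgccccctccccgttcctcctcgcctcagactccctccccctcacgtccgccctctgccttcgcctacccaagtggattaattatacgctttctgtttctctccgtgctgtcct

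All 3 windows were nearly free of methylation in both lines. The Ascl2 window has 23 CpGs, of which 20 were compared, and 2.75% of 2950 reads were methylated in A129-2 and 2.52% of 2939 in AOS-14. In the Cd81 window 13 of 23 CpGs were compared, at 1.50% of 867 reads and 1.65% of 1272 reads. They lie from 66 bases before to 47 bases after the start, and the CpGs farther upstream were not compared. In the Igf2 window 8 of 24 CpGs were compared, at 4.08% of 1128 reads and 3.56% of 1319 reads. All 8 lie 250 to 194 bases before the start, so the rest of that window was not measured. What methylation there was lay mostly at CpGs of the motif CCGG, the site cut by the enzyme MspI. CCGG reads the same on both strands and is present in 52.8% of the 32851 promoter windows of the table. In the Ascl2 window its 3 CCGG CpGs had 11.7% and 10.8%, and the other 17 CpGs 0.669% and 0.666%. In the Igf2 window 2 CCGG CpGs had 15.7% and 12.9%, and the other 6 had 1.42% and 1.40%. The single CCGG CpG of the Cd81 window had 10.9% and 10.3%, and the other 12 had 0.132% and 0.616%.

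Within the 10 genes and 10 kb either side, 500 distinct CpGs reached 10 reads in each library, of 1030368 such CpGs in all. Of the 500, 55 lie in the intervals of more than 1 gene. Kcnq1 and Kcnq1ot1 share 11, Igf2 and Ins2 share 6, Cdkn1c and Slc22a18 share 18, and Phlda2 and Slc22a18 share 20. The median depth of these CpGs was 59.5 reads in A129-2 and 78 in AOS-14, against 79 and 97 over all compared CpGs. The number of CpGs ran from 132 for Kcnq1 to 6 for Ins2 and 7 for H19, so the values of the last 2 rest on few positions. The level of a gene is its methylated reads over all its reads, and its exact 95% binomial interval covers only counting error, since reads copied in amplification are not independent. Reads are summed over CpGs, so a read that covers several CpGs counts at each of them. The intervals and tests treat these counts as independent.

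Methylation of the domains was low in both lines, and lower in A129-2 for most members. Over the 500 CpGs 7.09% of reads were methylated in A129-2 and 11.7% in AOS-14, compared with 8.52% and 14.8% on the whole of chromosome 7. The H19, Igf2 and Ins2 intervals together had 5.67% and 9.28%, and those from Ascl2 to Phlda2 had 7.53% and 12.5%. Of the 500 CpGs, 306 were lower in A129-2, 113 were higher and 81 were equal. Levels under 5% were found at 293 CpGs in A129-2 and 275 in AOS-14, and levels of 50% or more at 2 and 14 CpGs. All 14 of the latter are CCGG CpGs, and 10 of them lie in the Kcnq1 interval.

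The gene intervals of Ins2 and Kcnq1 passed the criterion for a difference, which asked for a Benjamini-Hochberg adjusted p below 0.05 (Fisher's exact test, all 32406 testable genes) together with 10 percentage points or more between the lines. Both were lower in A129-2. Among all genes tested, 22.1% met this criterion as lower and 0.0432% as higher, so 2 of 10 is near the background. A gene below 10% in AOS-14 cannot be called lower, and this held for H19, Igf2, Ascl2, Cd81, Kcnq1ot1 and Cdkn1c. The share of all genes also counts genes below that level. The median difference of the 10 genes, -3.76 points, stood beside -4.41 points for all genes tested. Their median was 7.15% in A129-2 and 9.62% in AOS-14, beside 7.99% and 12.8% for all genes. With no minimum size, 9 of the 10 were lower at an adjusted p below 0.05, as were 86.3% of all genes, and 0 were higher, as were 0.623% of all genes. H19 was the exception.

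**Figure D1:**
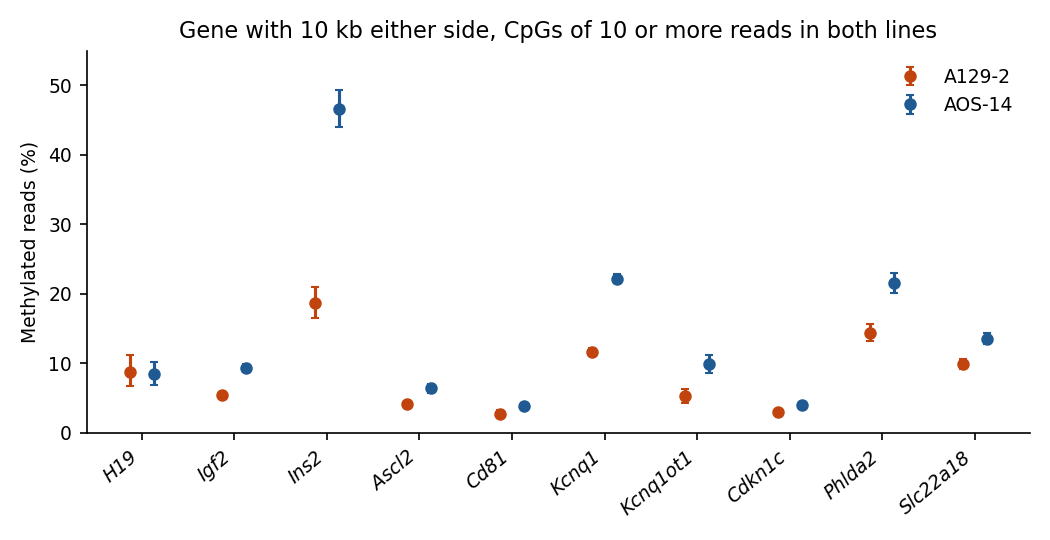
Level of each gene with 10 kb either side, as methylated reads in percent, in A129-2 and AOS-14, 1 library each; bars are exact 95% binomial intervals and cover counting error only. Ins2 is at 18.7% and 46.6% and Kcnq1 at 11.6% and 22.2%, while the intervals of H19 overlap at 8.82% and 8.45%.

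**Figure D2:**
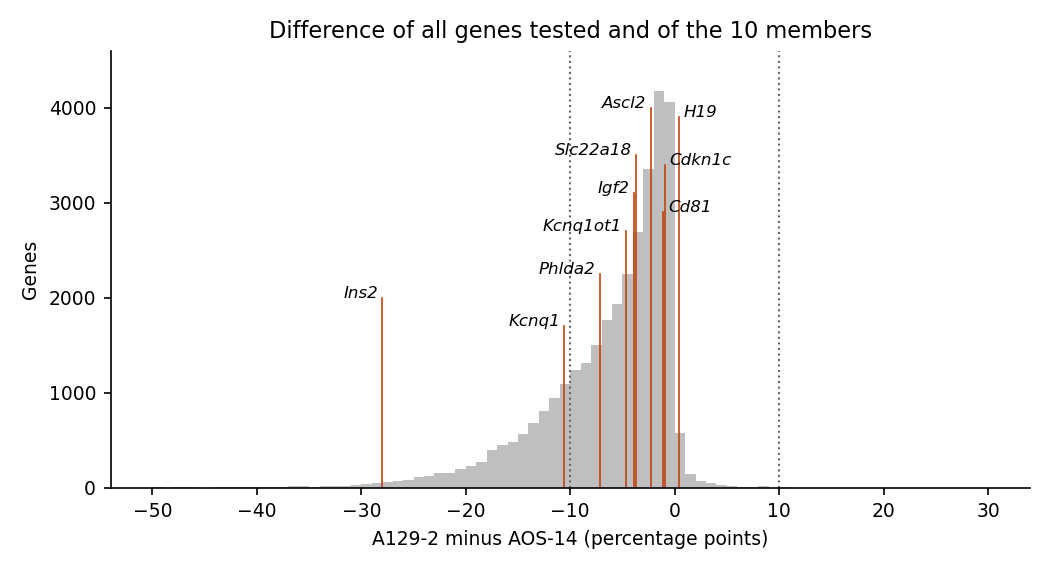
Difference A129-2 minus AOS-14, in percentage points, of the 32406 genes tested (grey, genes per bin of 1 point, values beyond the axis drawn at its ends) with the 10 genes marked by lines whose height has no meaning. Dotted lines stand at 10 points either way; Ins2 and Kcnq1 lie past the left one and H19 is the only one of the 10 above 0.

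H19, a noncoding RNA made from the maternal copy in diploid cells, lies at chr7:142575530-142578146. It was the member with the least difference between the pooled levels. Its interval had 8.82% (62 of 703 reads, interval 6.83 to 11.2) in A129-2 and 8.45% (92 of 1089 reads, 6.86 to 10.3) in AOS-14, a difference of 0.37 points (adjusted p = 0.810, Fisher's exact test). The sign of that difference turns with the weighting. As a mean over its 7 CpGs it was -3.71 points, with 2 kb either side it was -1.46 points, and with every listed CpG pooled it was -0.19 points.

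The 7 CpGs of H19 differ among themselves far more than the pooled levels of the lines do. Next to the start, 5 CpGs 0.019 to 0.096 kb upstream had 5.20% of 519 reads in A129-2 and 6.50% of 938 reads in AOS-14. Of these the CCGG CpGs, at both ends of the stretch, had 13.8% and 16.4%, and 13.6% and 19.3%. The 3 CpGs between them stood at 0.794% and 1.70%, 0.769% and 3.85%, and 5.30% and 2.62%. The promoter of H19 is known to gain methylation on the paternal copy after fertilisation, and these 5 CpGs were low in both lines. The CpG inside the gene, at position 142576012, had 23.4% of 47 reads and 46.3% of 41 reads (adjusted p = 0.153, Fisher's exact test).

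The H19 control region was searched 2 to 5 kb upstream of the start (chr7:142580146-142583146), and 7 CpGs were listed there. Pooled, 24 of 142 reads were methylated in A129-2, or 16.9% (interval 11.1 to 24.1), and 12 of 116 in AOS-14, or 10.3% (5.46 to 17.4). The difference of 6.56 points did not pass Fisher's exact test (p = 0.151, also after adjustment over the 2 control regions tested). Nearly all of these reads came from 1 CpG in a CCGG motif 3041 bases upstream, with 17.5% of 137 reads and 10.9% of 110 reads. The other 6 CpGs had 0 methylated of 5 reads in A129-2 and 0 of 6 in AOS-14, which, at 3 counts, allow levels of up to 60% and 50%. The level of the control region as a whole is therefore not measured at this depth. At the CpG that was measured, the upper interval bounds were 24.9% and 18.3%. Between 5 and 10 kb upstream 1 CpG was listed, with 1 read in AOS-14, which was methylated, and 0 in A129-2.

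Igf2, the paternally expressed growth factor gene, lies at chr7:142650768-142666816. The compared CpGs of its body lay mostly in a few clusters, with none between 142652117 and 142658318. The Igf2 interval held 116 CpGs, with 5.48% of 11713 reads methylated in A129-2 (interval 5.08 to 5.91) and 9.36% of 12740 in AOS-14 (8.86 to 9.88). The difference was -3.88 points (adjusted p = 2.96e-30, Fisher's exact test). It came mainly from the upstream side. In the gene itself, 110 CpGs had 3.97% and 4.88%, a difference of -0.91 points, while 6 CpGs upstream of the first start had 18.7% and 46.6%.

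The gene body of Igf2 was described by runs, which are stretches of at least 5 compared CpGs with steps of at most 100 bases. Of its 5 runs none met the criterion of 25 points. All 5 were below 10% in AOS-14, so none could be called lower. The longest run, 44 CpGs around chr7:142659375-142659917, had 2.24% of 3212 reads in A129-2 and 2.77% of 3575 in AOS-14. The run that overlaps the printed Igf2 window, chr7:142658997-142659179, had 3.50% and 3.01% over 17 CpGs. Nearest the first start, the run at chr7:142664191-142664387 had 4.21% and 4.84% over 23 CpGs. Only the run at chr7:142660446-142660586, with 3 of its 6 CpGs in CCGG, came near 10%, at 8.61% and 9.92%. Close to the far end of the gene, at 142652084 and 142652117, 2 CpGs had 12.5% and 45.0%, and 16.7% and 47.6%, from 12 to 21 reads (adjusted p = 0.305 and 0.493, Fisher's exact test).

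The run with the largest difference in the domains lies upstream of Igf2. The run at chr7:142669708-142669791, 2.89 to 2.98 kb upstream of the first RefSeq start, had 17.7% of 1147 reads in A129-2 (interval 15.5 to 20.03) and 46.6% of 1335 reads in AOS-14 (43.9 to 49.3). Of its 5 CpGs the second and the last are in CCGG. In order of position the levels were 16.2% and 41.8%, 19.8% and 54.5%, 9.38% and 36.3%, 8.91% and 39.9%, and 49.3% and 75.5%. Each of the 5 was lower in A129-2, with differences from -34.7 to -25.6 points, and each was called as a single CpG. The sixth upstream CpG, at 142670360, had 37.3% of 59 reads and 48.4% of 31 reads (adjusted p = 0.911, Fisher's exact test). Of the 32 runs in the member intervals this was the only one called, where 5.35% of all 50354 runs were called lower and 0.0139% higher. A run below 25% in AOS-14 cannot be called lower, and 23 of the 32 were under 10% in both lines. When CCGG CpGs were left out, or with steps of at most 50 bases, too few CpGs of the called run remained to form a run.

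Ins2, an insulin gene, lies at chr7:142678656-142679726, and no CpG inside it reached 10 reads in both lines. Its value is that of the same 6 CpGs upstream of Igf2, which fall within 10 kb of its far end. It stood at 18.7% (interval 16.5 to 21.0) in A129-2 and 46.6% (44.0 to 49.3) in AOS-14, a difference of -27.98 points (adjusted p = 2.48e-51, Fisher's exact test). With each CpG given to its nearest gene, Ins2 kept 0 CpGs. The call for Ins2 is thus the Igf2 upstream measurement under another name. The 19 thinly read CpGs of the interval, with 25 and 26 reads in all, had 28% and 76.9%.

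**Figure D3:**
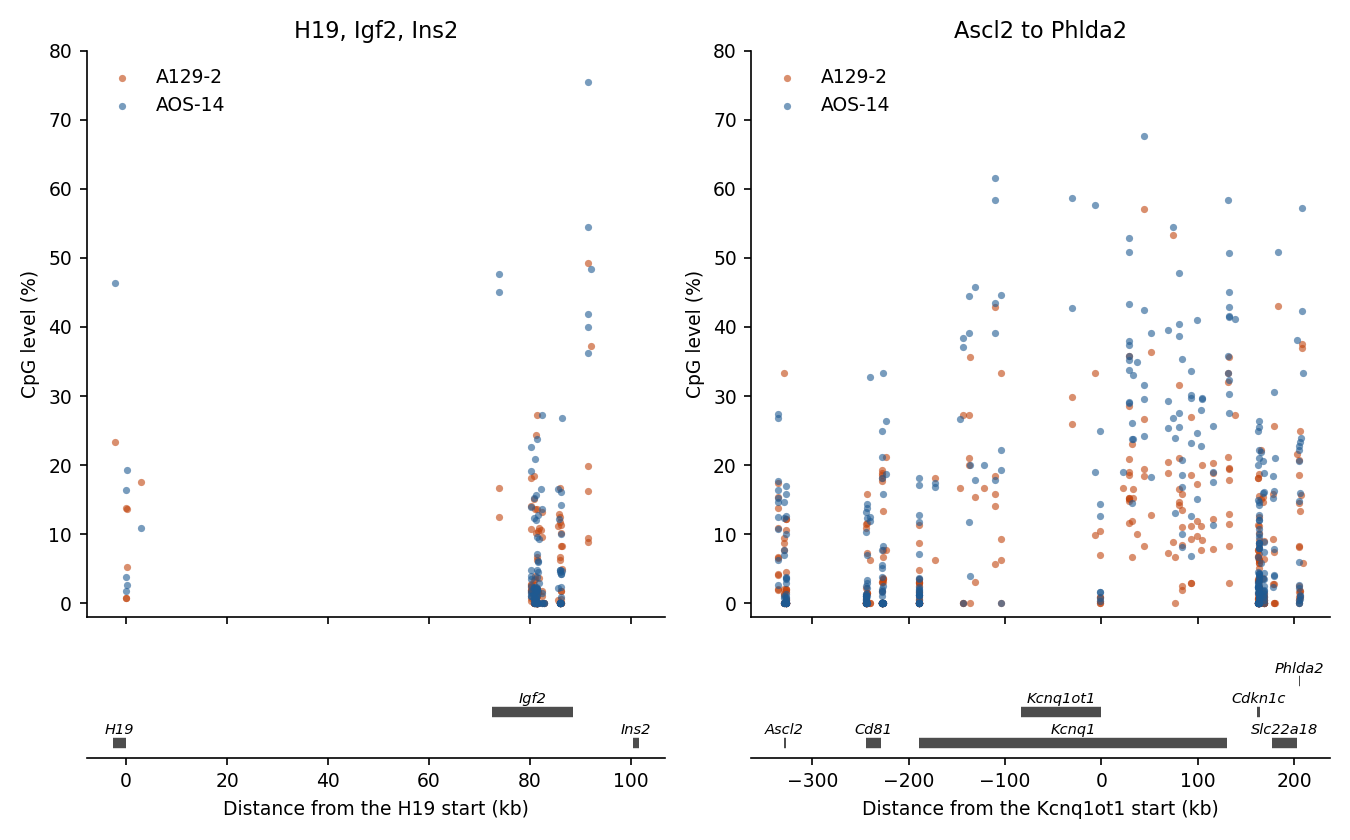
Level of each compared CpG in percent against the distance in kb from the H19 start (left) and from the Kcnq1ot1 start (right), in A129-2 and AOS-14, with genes as bars; distance grows with chromosome position. Most CpGs over Igf2, Ascl2, Cd81 and Cdkn1c lie near 0, and the CpGs of the Igf2 upstream run and of the interior of Kcnq1 reach the highest levels.

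Kcnq1ot1, the noncoding RNA whose promoter lies in the control region KvDMR1, spans chr7:143213111-143296547 on the minus strand inside Kcnq1. Methylation of the control region was low in both lines. Within 2 kb either side of its start 18 CpGs were listed, all 0.930 to 1.17 kb inside the transcript and none upstream. Pooled, 39 of 1727 reads were methylated in A129-2, or 2.26% (interval 1.61 to 3.07), and 74 of 2027 in AOS-14, or 3.65% (2.88 to 4.56). This small difference of -1.39 points passed Fisher's exact test (p = 0.0128, adjusted over the 2 control regions 0.0255). The same read can count at several of these closely spaced CpGs, and the test treats the counts as independent. The difference did not pass outside CCGG, where 14 CpGs had 7 methylated of 1384 reads, 0.506%, and 17 of 1632, 1.04% (p = 0.105, Fisher's exact test). The 4 CCGG CpGs had 9.33% and 14.4%. The RefSeq promoter window of the Kcnq1ot1 start holds 9 CpGs and no CCGG, and none of the 9 was listed.

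The rest of Kcnq1ot1 was measured at 4 CpGs, all in CCGG and all lower in A129-2. Together they had 19.3% of 337 reads (interval 15.2 to 23.9) and 36.5% of 433 reads (31.9 to 41.2). The CpG at 143265990 had 25.9% of 54 reads in A129-2 and 58.6% of 87 reads in AOS-14 (Fisher's exact test, adjusted p = 0.00309) and was called. The whole Kcnq1ot1 interval, with 11 CpGs, had 5.27% and 9.89%, a difference of -4.62 points (adjusted p = 2.22e-08, Fisher's exact test). As a mean over CpGs, which gives the thinly read CpGs more weight, it was -10.5 points, past the 10 points required. The adjusted p stayed that of Fisher's exact test on the pooled reads, so the mean difference itself was not tested.

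Kcnq1 encodes a potassium channel subunit of heart and inner ear and is the longest member, at chr7:143106877-143427050. Its interval had 11.6% of 14847 reads methylated in A129-2 (interval 11.1 to 12.2) and 22.2% of 16107 in AOS-14 (21.6 to 22.9). The difference of -10.6 points was called (adjusted p = 7.14e-135, Fisher's exact test), and 112 of its 132 CpGs were lower in A129-2. The call lies close to its limit. It was lost in the gene body alone, at -9.97 points, and outside CCGG, at -9.14 points.

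The level of Kcnq1 depended on the place within the gene. In its first 1 kb, 27 CpGs had 1.73% in A129-2 (interval 1.21 to 2.40) and 2.71% in AOS-14 (2.05 to 3.50). From there to the Kcnq1ot1 interval, 23 CpGs had 10.1% and 22.4%. Beyond the Kcnq1ot1 start, 59 CpGs had 14.3% and 27.1%, and all 59 were lower in A129-2. In the 10 kb past the gene end, 12 CpGs had 22.7% (20.5 to 25.02) and 41.0% (38.3 to 43.7), again all lower in A129-2. Outside CCGG these 4 parts had 1.09% and 1.25%, 8.59% and 19.3%, 11.5% and 24.5%, and 19.5% and 38.0%. The parts were set after the levels were seen.

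Among the 6 member runs with at least 20% in AOS-14, 5 lie in Kcnq1 or just beyond it. The run 218 kb into the gene, chr7:143325149-143325341, had 17.5% and 36.6% over 10 CpGs. The run 270 kb in had 17.6% and 34.0%, and the run 282 kb in had 11.2% and 21.1%. The run 79.7 kb in, chr7:143186509-143186554, was thinly read, with 15.8% of 203 reads and 38.3% of 128 reads. The run beyond the gene, chr7:143428481-143428568, had 22.9% of 1080 reads and 43.1% of 966 reads. In these 5 runs each CpG was lower in A129-2, and none reached the 25 points of the run criterion. The run at 21.1% in AOS-14 could not reach it. Single CpGs called in the Kcnq1 interval and not in Kcnq1ot1 were at 143152976, 143186509, 143186554 and 143428568, the last of them beyond the gene end. In that order the AOS-14 levels were 38.5%, 43.5%, 58.3% and 42.9%, and the A129-2 levels were 0%, 5.71%, 15.8% and 11.4%. At the first, 0 of 20 reads were methylated in A129-2 and 10 of 26 in AOS-14 (Fisher's exact test, adjusted p = 0.0223). At 3 counts, 0 of 20 allows a level of up to 15%.

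**Figure D4:**
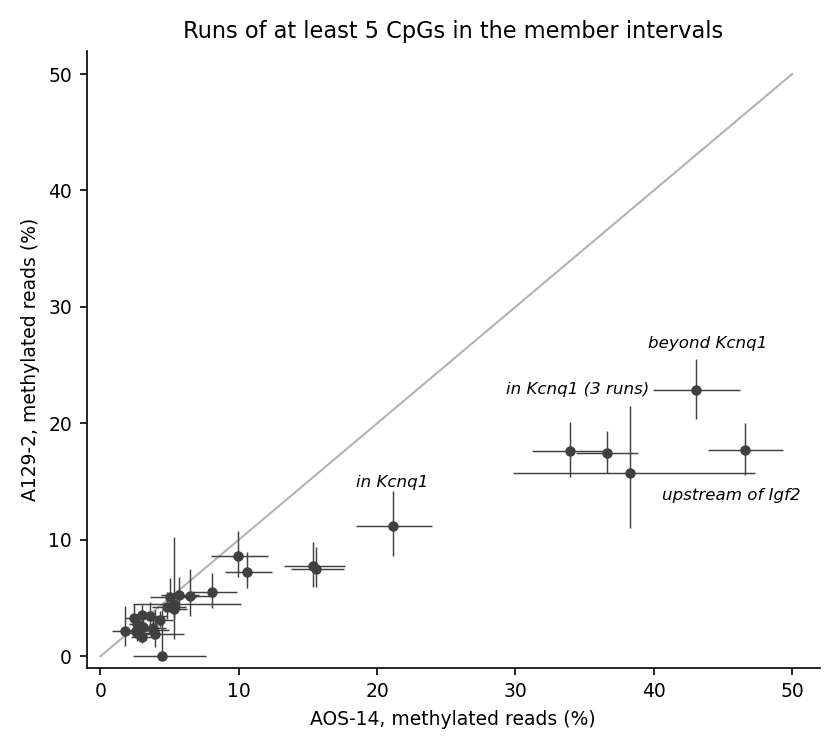
Level in A129-2 against level in AOS-14, in percent of reads, for the 32 runs of at least 5 CpGs in the member intervals; bars are exact 95% binomial intervals and the line marks equal levels. Runs under 10% sit near the line, and the 6 runs above 20% in AOS-14 lie below it.

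Cdkn1c, which encodes a cyclin-dependent kinase inhibitor that restrains growth, lies at chr7:143458339-143461059. Its body is known to gain methylation on the paternal copy as development proceeds, and here it was nearly unmethylated in both lines. The interval had 3.02% of 9850 reads in A129-2 (interval 2.69 to 3.37) and 3.99% of 11038 in AOS-14 (3.63 to 4.37), a difference of -0.97 points (adjusted p = 2.04e-04, Fisher's exact test). The 76 CpGs of the gene had 2.64% and 3.44%. Its 3 runs had 1.98% and 2.61%, 2.51% and 3.08%, and 3.12% and 4.32%. Outside CCGG, 77 CpGs of the interval had 1.40% and 1.66% (Fisher's exact test, adjusted p = 0.210). In the upstream run at chr7:143465354-143465471, 0 of 91 reads were methylated in A129-2 (upper interval bound 3.97%) and 4.44% of 270 reads in AOS-14 (Fisher's exact test, adjusted p = 0.0753).

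Phlda2, a gene that limits growth of the placenta, lies at chr7:143501545-143503145 and showed a steep change of level over a short distance. The 8 CpGs within 0.5 kb of its start had 60 methylated of 1199 reads in A129-2 and 42 of 865 in AOS-14 (4.86%). Upstream, at 143504145, 143504215 and 143504229, 3 CpGs had 15.7% and 23.9%, 36.9% and 42.4%, and 37.5% and 57.2%. Together they held 34.1% of 987 reads and 43.3% of 1260. Only the last of them differed, by -19.6 points (Fisher's exact test, adjusted p = 2.87e-06), short of the 25 points required. The interval as a whole had 14.4% (13.2 to 15.6) and 21.5% (20.1 to 23.0), a difference of -7.16 points (adjusted p = 2.53e-13, Fisher's exact test).

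Slc22a18, a membrane transporter gene at chr7:143473726-143499334, shares its flanks with Cdkn1c and Phlda2. Its interval had 9.87% of 6968 reads in A129-2 (9.18 to 10.6) and 13.5% of 7570 in AOS-14 (12.8 to 14.3), a difference of -3.65 points (adjusted p = 1.81e-11, Fisher's exact test). Of its 48 CpGs, 11 lie in the gene, with 10.8% and 13.6%. The CpG at 143479962, the most methylated of its interval in A129-2, had 43.1% of 137 reads and 50.9% of 108 reads.

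Ascl2, a transcription factor of placental trophoblast, lies at chr7:142966822-142969264 and was unmethylated at its start and in its body. The 23 CpGs within 0.5 kb of the start had 2.97% and 2.76%, and the 10 CpGs of the rest of the gene had 3.41% and 3.61%. The 10 CpGs past its end had 7.47% and 15.0%. The interval differed by -2.29 points (4.12% and 6.41%, adjusted p = 4.74e-08, Fisher's exact test). With 2 kb or 5 kb either side, which leave out the CpGs past the end, the difference was 0.09 points. With strands tested apart, the plus strand of the CCGG CpG at 142969377 was the only member measurement called higher in A129-2, at 26.9% of 26 reads and 1.75% of 57 reads (adjusted p = 0.0154, Fisher's exact test). With both strands added it had 12.2% and 10%.

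Cd81, which encodes a tetraspanin of the cell surface, had the lowest level of the 10 in both lines. Its interval, around chr7:143052750-143067930, had 2.73% of 4720 reads in A129-2 (2.29 to 3.24) and 3.87% of 6355 in AOS-14 (3.41 to 4.37), a difference of -1.14 points (adjusted p = 0.00129, Fisher's exact test). The 25 CpGs at its start had 2.17% and 2.57%. The 10 other CpGs in the gene had 1.62% and 8.69%. Among them the CpG of largest difference, at 143056012, had 6.25% of 32 reads and 32.7% of 55 (adjusted p = 0.0533, Fisher's exact test). The CpG at 143056096, named after its values were seen, had 0 methylated of 98 reads in A129-2 and 22 of 185 in AOS-14 (Fisher's exact test, adjusted p = 0.00127). At 3 counts, 0 of 98 allows a level of up to 3.06%.

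Over all members 10 of 500 CpGs were called lower in A129-2 and 0 higher. A call here needs 25 points and a p below 0.05 from Fisher's exact test, adjusted over all 1030368 CpGs. Over all compared CpGs 4.08% were called lower and 0.0297% higher, and the members' share was 2.00%. In AOS-14 a level of 25% or more was found at 90 of the 500, and below that level no call of a lower value is possible. Of the 10, 5 form the Igf2 upstream run, and the other 5 lie in the Kcnq1 interval, 1 of them in Kcnq1ot1 too and 1 beyond the gene end. CCGG CpGs made up 5 of the 10.

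The CpGs of largest difference in each gene and direction that were not called and are not given above rest mostly on few reads. At Phlda2 and Slc22a18 the CpG at 143506060 had 5.88% of 17 reads in A129-2 and 33.3% of 18 in AOS-14. At Cdkn1c the CpG at 143459907 had 9.09% of 22 reads and 25.5% of 47. At Ascl2 the CpG at 142969201 had 0 of 10 reads, which allows up to 30%, and 15.8% of 19. In the other direction, the CpG at 142967715 in Ascl2 had 33.3% of 27 reads in A129-2 and 6.98% of 43 in AOS-14 (Fisher's exact test, adjusted p = 0.0570). The CpG at 143458918 in Cdkn1c had 18.2% of 11 reads and 0 of 17, and the CpG at 142664191 in Igf2 had 16.7% of 12 reads and 0 of 11. At counts of 0 these 17 and 11 reads allow up to 17.6% and 27.3%. Beyond Cd81 the CpG at 143069318 had 19.4% of 62 reads and 5.56% of 36, and in Kcnq1 the CpG at 143159807 had 35.7% of 14 reads and 20% of 10. All of the CpGs named so far in this group are in CCGG. The largest differences towards a higher level in A129-2 at the remaining genes were small and lay outside CCGG. The CpG at 143295427 in Kcnq1ot1 had 0.935% of 321 reads in A129-2 and 0.270% of 371 in AOS-14. At 143501773 in Phlda2 the values were 8.24% of 85 reads and 5.93% of 118, and at 143476136 in Slc22a18 they were 7.41% of 27 reads and 3.92% of 51.

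CCGG CpGs were more methylated than the other CpGs in each member and line. They made up 159 of the 500 CpGs, with 15.8% in A129-2 and 24.2% in AOS-14, while the other 341 had 3.78% and 7.11%. Over all compared CpGs the same classes had 19.5% and 32.2%, and 5.90% and 13.1%, so the gap is not particular to these genes. At Kcnq1ot1 the classes had 14.3% and 25.9% against 0.539% and 1.07%. At H19 they had 16.8% and 18.7% against 2.32% and 2.72%. At Ins2 and Igf2 upstream, where the other CpGs numbered 3, these alone had 11.4% and 38.7%. The part of the motif in these levels was not tested.

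**Figure D5:**
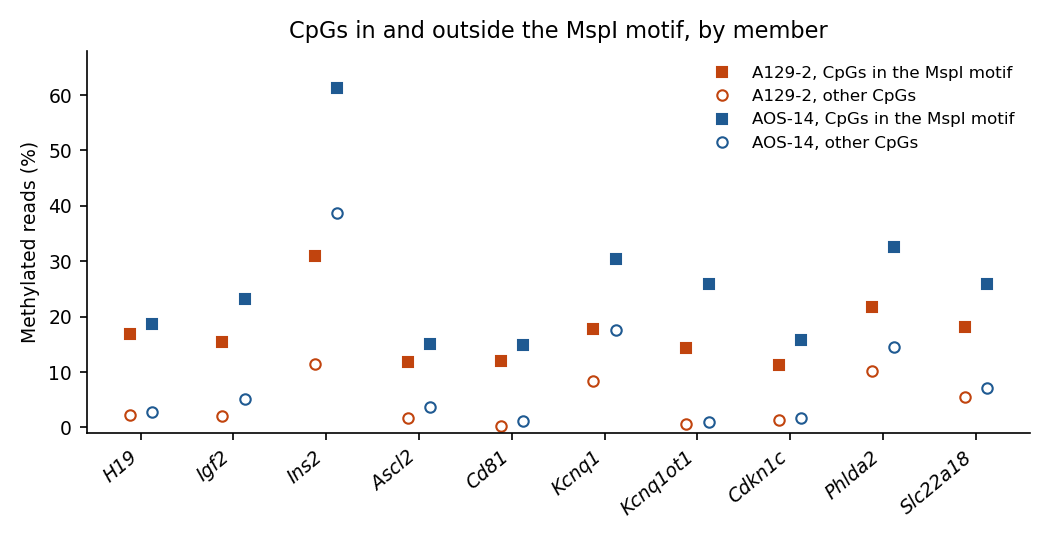
Level in percent of reads of CpGs in the MspI motif (squares) and of other CpGs (circles) in each member, for A129-2 and AOS-14. Squares lie above circles of the same line in each of the 10 members; Kcnq1ot1, for one, has 14.3% and 25.9% against 0.539% and 1.07%.

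Other genes of distal chromosome 7 were read in the same way. Of 21 neighbours 20 could be tested, and 5 were called lower in A129-2 and 0 higher, where 22.1% of all genes were called lower and 0.0432% higher, so the count is near the background. Their median levels were 8.08% and 14.8%, with a median difference of -6.36 points. Those called were Syt8 and Tnni2, which share the same 12 CpGs (14.3% and 29.3%), the troponin gene Tnnt3 (17.4% and 28.1%), the tyrosine hydroxylase gene Th (17.6% and 27.8%) and the decoy receptor gene Tnfrsf23 (7.94% and 24.4%). Among the 15 not called, the differences ran from -9.88 points at Tnfrsf22 to -0.75 points at Dusp8. Of these, Brsk2, Dusp8, Ctsd, Mrpl23, Tssc4 and Trpm5 were below 10% in AOS-14 and could not be called lower. For 9 genes known to maintain imprints, among them Ctcf, Zfp57 and Trim28, 0 were called lower, beside the same 22.1% of all genes, 0 were called higher, and the medians were 6.73% and 8.92%. Of the 9, Dppa3, Trim28, Ctcf, Zfp445 and Smchd1 were below 10% in AOS-14 and could not be called lower. A group of 13 genes of the insulin-like growth factor axis held Igf1, receptors, binding proteins and others. Of these, 1 was called lower, again beside 22.1% of all genes, and 0 higher. It was the growth factor gene Igf1, at 20.4% and 35.0% over 7 CpGs, and the medians of the group were 5.76% and 10.4%. In this group Irs1, Irs2, Igf2bp1, Igf2bp2, Igf2bp3 and Igfbp3 were below 10% in AOS-14 and could not be called lower. No test compared these lists with other genes.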

How the data were processed

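Per the submitters' processing notes, reads were aligned with BSMAP to mm10, with versions, trimming and removal of duplicate reads not given in the sources used here. The labels' protocols describe capture with a mouse methylation panel, and the title names RRBS. Per the file headers, the authors deposited for each CpG the level as a fraction and the counts of all and of methylated reads, both strands added. The fraction equalled the ratio of the deposited counts within 0.0005. The tables list 1699405 and 1819756 CpGs, with 153035567 and 178315194 read calls, in A129-2 and AOS-14.

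Start positions were raised by 1. All 13274 listed CpGs of chromosome 7 inside RefSeq promoter windows then fell on CG letters. Genes needed at least 5 CpGs of at least 10 reads in both libraries. Methylated and unmethylated reads were compared by a two-sided Fisher's exact test, and p-values were adjusted by Benjamini-Hochberg over all genes, CpGs or runs. Strand came from the promoter table, and for H19, Ins2, Kcnq1 and Cdkn1c from general knowledge. The members, lists and tests were chosen with earlier results of these data known. All members are named, with their called CpGs and the CpGs of largest difference, and neighbours where called, with the extremes of the rest. Other single CpGs were picked after their values were seen. Runs, a unit outside the design, and the parts of Kcnq1 were added after the data were seen. The procedure was tested on simulated data, with reads drawn independently at each CpG. That does not cover reads shared between CpGs or copied in amplification. Software was Python 3.11.15, scipy 1.17.1, matplotlib 3.10.9, numba 0.67.0, pandas 2.3.3 and numpy 2.4.6.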

Additional observations from a re-analysis of the deposited data

How the results depend on the processing

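With 1 library per line there is no replicate check. No paired analysis was possible because each line has a single library. Read weighting lets uneven depth between CpGs move a level, so means over CpGs were computed too. Calls as a mean over CpGs took only the size from the mean, and the test stayed that on pooled reads. Of the 10 members, 8 (Igf2, Ins2, Cd81, Kcnq1, Cdkn1c, Kcnq1ot1, Phlda2 and Slc22a18) kept their direction, and all of these but Kcnq1 and Kcnq1ot1 also kept their side of the threshold, in each alternative that could be fitted. Ins2 had only 5 such alternatives. It could not be fitted in the gene body, with 2 kb or 5 kb either side, outside CCGG or with CpGs given to the nearest member. Apart from the setting with no minimum of reads, its alternatives used the same 6 CpGs. Cd81 and Cdkn1c stayed below 10% in AOS-14 throughout, so they could not be called lower. Igf2 passed 10% in AOS-14 only with a minimum of 20 reads, at 10.05%. Kcnq1 ranged from -11.7 to -9.14 points and lost its call in the gene body alone (-9.97) and outside CCGG (-9.14). Kcnq1ot1 gained one as a mean over CpGs (-10.5). H19 turned to -3.71 points as a mean over CpGs, -1.46 with 2 kb either side and -0.19 with no minimum of reads. Ascl2 turned to 0.087 points with 2 kb or 5 kb either side. In place of 2 members, 1 was called with 2 kb or 5 kb either side or with CpGs given to the nearest member, and 0 in the gene body alone or outside CCGG.

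Over all genes, 7169 were called lower and 14 higher. The lower count was 3549 outside CCGG, 3680 in gene bodies, 4218 with 2 kb either side, and 509, 14832 and 27955 with a minimum difference of 25 points, 5 points and none. The higher count was 105 with no minimum of reads, 9 as a mean over CpGs, and 0, 61 and 202 with those 3 minimum differences. In place of 10 single CpGs called lower, 35 were at 10 points, 0 at 50 points and 5 outside CCGG, and 1 was called higher with strands apart. In place of 1 run, 0 were called with steps of at most 50 bp or outside CCGG, settings chosen after seeing the data. Near Kcnq1ot1 the difference no longer passed the test within 1 kb (-2.11 points) or outside CCGG (-0.536 points). Within 1 kb only 58 reads in A129-2 and 95 in AOS-14 remained, at 0% and 2.11%. At 3 counts, 0 of 58 allows a level of up to 5.17%. The H19 control region did not pass the test in any setting. Outside CCGG only 1 and 5 reads remained there. The other settings rest almost wholly on the same CpG of 137 and 110 reads, so they are no independent check. Where a setting leaves out CpGs, fewer CpGs or genes were tested; otherwise the cause of a change was not tested.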
